A study of Mus musculus with 15 samples.

Results

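The genes described here build, load and anchor the primary cilium, the single antenna that most epithelial cells carry. A list of 49 genes was drawn up by role, and 47 of them had a probe set that names 1 gene; Arl6 and Arl13b were not analysed here. Where a gene had several such probe sets, the one with the highest mean over the 15 arrays was taken. All 47 passed the filter on dim genes, among 16883 genes that were tested together. They fall into 11 subunits of the IFT-B train, 5 subunits of the IFT-A train with its partner Tulp3, 5 motor genes, 9 genes of the BBSome and its chaperonins, the GTPase gene Arl3, 12 genes of the transition zone and basal body, and 3 Rfx transcription factors.

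A cilium grows from a basal body, a modified centriole docked at the cell surface. Kinesin motors carry cargo to the tip on IFT-B trains, dynein-2 brings it back with IFT-A, the BBSome moves membrane proteins out of the cilium, and the transition zone at its base acts as a gate. Rfx factors bind X-box sites in the promoters of many of these genes. In the pancreas, duct cells and islet cells carry primary cilia and mature acinar cells generally lack them, and loss of pancreatic cilia in mice leads to duct dilation and cysts.

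Sorted mouse pancreas cells were hybridised to 15 Affymetrix gene arrays in 5 groups with n = 3 arrays each. Males carrying a Sox9-EGFP or an Ngn3-EGFP reporter had been mated with wild-type CD1 females. Every group thus carries a GFP transgene and had CD1 mothers. The groups were Sox9-EGFP cells of high GFP signal from embryos at e10.5 and e15.5 and from pups at p23, Ngn3-EGFP cells of high GFP signal at e15.5, and the GFP- cells of the Sox9-EGFP pancreas at p23. They are called Sox9-GFP+, Ngn3-GFP+ and GFP- below. Animals were pooled before each sort, so the p-values measure the spread between pooled arrays and not between animals, and the GFP- cells are whatever the reporter did not mark. The series set the Sox9 stages side by side, and used the Ngn3-GFP+ and GFP- cells to stand for newly formed endocrine cells and for the acinar and endocrine cells of the pup.

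The sorts were checked on their own genes. Sox9 read 11.62, 11.94 and 12.10 in Sox9-GFP+ cells of the pups, against 10.08, 9.81 and 8.68 in the GFP- arrays, on the log2(intensity + 16) scale used throughout. At e15.5 Sox9 read 12.14, 12.10 and 12.11 in Sox9-GFP+ and 11.21, 10.13 and 11.14 in Ngn3-GFP+ cells. Neurog3 did not separate these sorts, at 12.12, 11.82 and 11.66 in Sox9-GFP+ and 11.53, 11.75 and 12.21 in Ngn3-GFP+ cells. The GFP- arrays carried strong leukocyte signal. Ptprc, the pan-leukocyte phosphatase, read 14.28, 14.41 and 14.64 there, and 8.12, 10.64 and 10.09 in Sox9-GFP+ cells at p23. Embryonic globin Hbb-y stood out in replicates 1 and 2 of Sox9-GFP+ e10.5 (10.48 and 11.20) and replicate 1 of Sox9-GFP+ e15.5 (9.98), against 5.85 to 6.35 in the others. Arrays of a group correlated at 0.933 or more over the genes tested, lowest in Ngn3-GFP+ cells.

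5 of the promoters carry a full X-box, and they are shown because Rfx factors are among the 47 genes. RefSeq promoter sequences (mouse build GRCm38.p6, 250 bases before to 50 after the start) matched 45 of the 49 listed genes; Ift80, Ift81, Ift122 and Dync2li1 had no entry. The X-box was searched as a 14-base palindrome, GTTNC then any 4 bases then GNAAC, which reads the same on both strands, and as the short site GTTGCC on either strand (GGCAAC), which a full site may contain. Each full site is printed below with up to 8 bases on either side, 5′ to 3′ on the gene's own strand, with the palindrome in capitals.
Bbs7: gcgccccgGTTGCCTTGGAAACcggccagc
Tctn1: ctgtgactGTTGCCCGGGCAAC
B9d2: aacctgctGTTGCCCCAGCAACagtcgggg
Ahi1: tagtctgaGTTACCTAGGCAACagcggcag
Mks1: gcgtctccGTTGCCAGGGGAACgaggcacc
These windows lie at chr3:36613489-36613518 on the minus strand (Bbs7), chr5:122264411-122264432 on the minus strand (Tctn1), chr7:25680788-25680817 on the plus strand (B9d2), chr10:20952560-20952589 on the plus strand (Ahi1) and chr11:87853183-87853212 on the plus strand (Mks1). The first base of the palindrome lies at position -121 from the annotated start in Bbs7 and -24 in Mks1, and at position 17, 22 and 37 of the transcribed stretch in B9d2, Ahi1 and Tctn1. The full site was found in 5 of the 45 genes (11.1%) and in 1.19% of all 27025 genes with a promoter entry. The short site was found in 24 of the 45 (53.3%) and in 14.1% of all genes. A match is a description of letters and says nothing about binding. Across the p23 sorts described next, 16 of the 23 measured genes with a short site were higher in Sox9-GFP+ cells, and 15 of the 20 without one. Of the 5 with a full site, Bbs7 and Tctn1 were higher and B9d2, Ahi1 and Mks1 did not pass the test.

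Sox9-GFP+ cells at p23 carried more RNA of most cilium genes than the GFP- cells of the same pancreas. In a limma fit over all 15 arrays and all genes, 34 of the 47 were higher at a Benjamini-Hochberg adjusted p of 0.05, the threshold for every call here, against 21.5% of all genes tested. Ift20 alone was lower, against 14.5% of all genes; 36% of all genes differed in either direction. The median difference of the 47 was 0.92 on the log2 scale, and that of all genes 0.07. A difference above 1, which is more than 2-fold on the log2(intensity + 16) scale, was seen for 22 of the 47 and for 9.23% of all genes. A difference above 2 was seen for 9 of the 47 and for 2.69% of all genes. All 3 Sox9-GFP+ arrays lay above all 3 GFP- arrays for 34 of the 47, as they did for 27.6% of all genes. They lay below them for 2, Ift20 and Ift46, and for 19.7% of all genes.

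**Figure D1:**
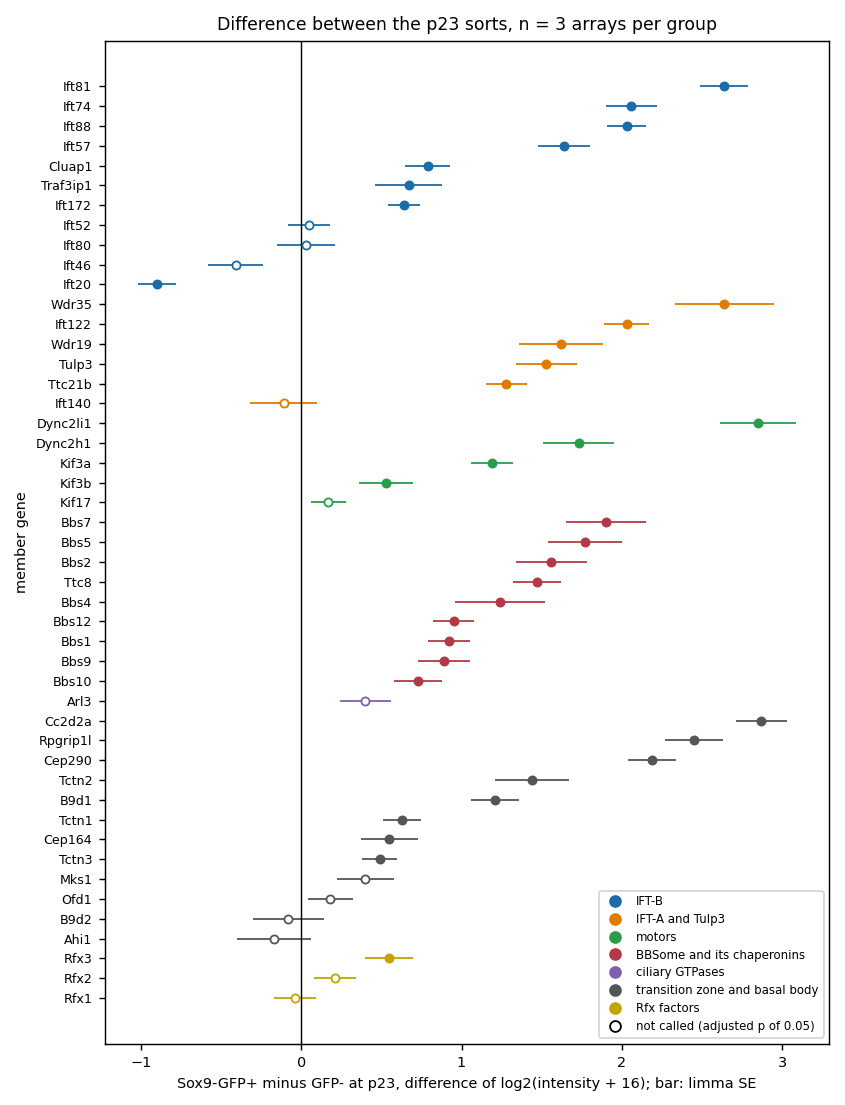
Difference between Sox9-GFP+ and GFP- cells at p23 for each of the 47 genes (difference of log2(intensity + 16), horizontal axis; bars are the limma standard error; n = 3 arrays per group), coloured by role, with open symbols for genes that did not pass the adjusted p of 0.05. In all, 41 of the 47 lie right of 0, from Cc2d2a at 2.87 down, and Ift20 at -0.90 is the one gene called lower.

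The IFT-B train, which carries cargo towards the tip, was split. Of its 11 subunits 7 were higher in Sox9-GFP+ cells, 1 was lower and 3 did not pass, with a median difference of 0.67. Ift81 and Ift74 bind each other and carry tubulin. Ift81 read 9.87, 9.97 and 10.49 in Sox9-GFP+ cells against 7.28, 7.61 and 7.51 in the GFP- sort, a difference of 2.64 ± 0.15 (SE; adjusted p = 5.54e-09). Ift74 read 9.85, 9.84 and 10.22 against 7.46, 8.08 and 8.18, a difference of 2.06 ± 0.16 (adjusted p = 1.71e-07). Neither pair of groups overlapped, and the gaps were several times the spread within a group. Ift88, whose hypomorphic mutation gives the orpk mouse its cystic kidneys and pancreatic lesions, read 10.08, 9.88 and 10.11 against 7.74, 8.12 and 8.12, a difference of 2.03 ± 0.12 (adjusted p = 9.78e-09). Ift57 (1.64), Cluap1 (0.79), Traf3ip1 (0.67) and Ift172 (0.64) were higher as well. Traf3ip1, which encodes IFT54, missed the threshold without replicate 3 of Sox9-GFP+ p23 or replicate 1 of the GFP- cells.

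Ift20 ran the other way. This subunit also sits at the Golgi, and it read 10.77, 10.84 and 10.85 in Sox9-GFP+ cells against 11.88, 11.74 and 11.55 in the GFP- sort, a difference of -0.90 ± 0.12 (adjusted p = 2.98e-05). Its GFP- values were the highest of all 15 arrays. Ift46, a subunit of the same train, differed by -0.41 ± 0.17 and did not pass (adjusted p = 0.0748), although its groups did not overlap; without replicate 3 of Sox9-GFP+ p23 it was called lower, which makes 2 such genes. Ift52 and Ift80 differed by 0.05 ± 0.13 and 0.03 ± 0.18.

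The return machinery and the motors gave larger differences. Among the IFT-A genes and Tulp3, 5 of 6 were higher, with a median difference of 1.58. Wdr35, the IFT121 subunit, read 8.92, 9.0 and 9.41 in Sox9-GFP+ cells against 5.97, 7.32 and 6.13 in the GFP- sort, a difference of 2.64 ± 0.31 (adjusted p = 8.66e-06). The second GFP- array lay well above the other two, and all 3 stayed below every other array of the study. Ift122 differed by 2.03 ± 0.14 (adjusted p = 4.9e-08), Wdr19 (IFT144) by 1.62, Tulp3, which brings receptors into the cilium with IFT-A, by 1.53, and Ttc21b (IFT139) by 1.28. Ift140 differed by -0.11 ± 0.21 and did not pass, with overlapping groups.

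Of the 5 motor genes 4 were higher, with a median of 1.19. Dync2li1, the light intermediate chain of dynein-2, read 9.80, 9.97 and 10.46 in Sox9-GFP+ cells against 7.29, 7.44 and 6.93 in the GFP- sort, a difference of 2.85 ± 0.24 (7.22-fold, adjusted p = 2.98e-07). The dynein-2 heavy chain Dync2h1 differed by 1.73 ± 0.22. Of the kinesin-2 subunits, Kif3a differed by 1.19 ± 0.13 and Kif3b by 0.53 ± 0.17. The Kif3b call was lost without any single one of replicates 2 and 3 of Sox9-GFP+ p23 or replicates 2 and 3 of the GFP- cells. Kif17, an accessory kinesin, differed by 0.17 ± 0.11 and lay below the dim-gene filter (6.83) in all 6 p23 arrays, so little can be read from it there.

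The BBSome group was the one role in which every measured gene was higher. All 9 passed, from Bbs10 at 0.73 to Bbs7 at 1.90, with a median of 1.24 and no overlap between the groups. Bbs7 read 8.21, 8.54 and 8.97 in Sox9-GFP+ cells against 6.39, 6.42 and 7.22 in the GFP- sort, a difference of 1.90 ± 0.25 (adjusted p = 2.86e-05). The core subunits Bbs5 (1.77), Bbs2 (1.56), Ttc8, also called Bbs8 (1.47), Bbs4 (1.24), Bbs1 (0.92) and Bbs9 (0.89) followed. The chaperonin-like genes Bbs12 (0.95) and Bbs10 (0.73), which help assemble the complex, gave smaller values. Bbs5 and Bbs10 were below the dim-gene filter in all 3 GFP- arrays, where log2(intensity + 16) understates a change. Arl3, a GTPase that releases lipid-modified cargo inside the cilium, differed by 0.40 ± 0.16 and did not pass (adjusted p = 0.0644).

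At the ciliary base 8 of 12 genes were higher and none lower, with a median of 0.59. Cc2d2a, a transition zone scaffold mutated in Meckel and Joubert syndromes, gave the largest difference of the 47. It read 10.01, 9.94 and 10.28 in Sox9-GFP+ cells against 7.36, 7.06 and 7.20 in the GFP- sort, a difference of 2.87 ± 0.16 (7.30-fold, adjusted p = 5.49e-09). Rpgrip1l, a second scaffold of the gate, read 8.68, 8.78 and 9.17 against 6.52, 6.75 and 6.0, a difference of 2.45 ± 0.18 (adjusted p = 8.94e-08), and its GFP- arrays were all below the dim-gene filter. Cep290, which links microtubules to the membrane there, read 9.98, 9.84 and 9.94 against 7.96, 7.88 and 7.37, a difference of 2.19 ± 0.15 (adjusted p = 3.41e-08). Tctn2 (1.44) and B9d1 (1.21), members of the same gate complex, followed at smaller size.

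Other genes of the base differed little. Tctn1 (0.63), Cep164 (0.55), a distal appendage gene, and Tctn3 (0.49) were called. The second probe set of Tctn1 gave -0.21, and with the mean of both the call was lost; those of Cep164 gave 0.55 and 0.56. The Cep164 call was lost without replicate 2 or 3 of Sox9-GFP+ p23 or replicate 1 or 2 of the GFP- cells. Mks1 (0.40 ± 0.18), Ofd1 (0.18 ± 0.14), B9d2 (-0.08 ± 0.22) and Ahi1 (-0.17 ± 0.23) did not pass, and their groups overlapped. The genes of the ciliary base thus ranged from -0.17 to 2.87, and B9d1 and its partner B9d2 lay at 1.21 and -0.08. Rfx3 was higher by 0.55 ± 0.15 (adjusted p = 0.011), a call lost without replicate 2 of the GFP- cells. Rfx1 (-0.04) and Rfx2 (0.21) did not pass.

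Cell type markers differed between the p23 sorts beside the cilium genes. Against 14.5% of all genes lower and 21.5% higher, 10 of 12 leukocyte markers were lower in Sox9-GFP+ cells. Their log2 values summed to between 125.18 and 129.89 per GFP- array and to between 90.75 and 98.80 per Sox9-GFP+ array, and Cd52, the second marker, lay between 12.73 and 13.29 there and between 6.44 and 8.13 in Sox9-GFP+ cells. Endothelial markers were lower for 5 of 8 (summed 67.33 to 69.84 against 57.69 to 60.35), mesenchymal and stellate markers for 7 of 10 (92.34 to 94.61 against 86.00 to 87.36) and acinar markers for 5 of 9 (108.73 to 111.22 against 99.90 to 102.71). Duct markers were higher for 8 of 10 (84.26 to 89.06 against 112.43 to 113.63), with Krt7 at 10.59, 11.12 and 10.90 against 7.58, 7.67 and 6.99. The 12 endocrine markers overlapped in their summed values (91.75 to 97.91 against 90.19 to 102.78), with some called lower, some higher and the rest not called. Acinar signal was strong in both sorts: the acinar enzyme Cpa1 read 13.23, 13.45 and 13.17 in Sox9-GFP+ cells against 13.64, 13.66 and 13.54 in the GFP- sort. The part of each cell type in the cilium gene differences was not tested. In sorted bulk RNA, fewer cells with cilium transcripts and less of them per cell cannot be told apart.

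Within the Sox9-GFP+ p23 group the arrays differed too. The mean of the 47 genes was 8.79, 8.93 and 9.15 in replicates 1 to 3, against 7.84, 7.93 and 7.96 in GFP- cells. Replicates 2 and 3 carried the higher Ptprc. With replicate 1 as the only Sox9-GFP+ p23 array, assumed to vary like the other groups, 27 of the 34 genes were still called higher, and Ift20 and Ift46 lower. The 7 lost calls were Traf3ip1, Kif3b, Bbs4, Bbs10, Cep164, Tctn3 and Rfx3. The 50 brightest probe sets held 5.51 to 5.72% of the summed intensity in GFP- arrays and 4.16 to 4.60% in Sox9-GFP+ p23 arrays. Scaling each array to its median left 31 of the 34 higher calls, and quantile normalization 31, with Arl3 in addition.

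The GFP- cells also stood below the embryonic cells. The GFP- group had the lowest mean of the 5 groups for 39 of the 47 genes. The share of all genes was not computed for that count, so it cannot be set against one. All 3 GFP- arrays lay below all 12 other arrays for 33 genes (70.2%), against 2039 of all genes (12.1%). The exceptions with the GFP- mean on top were 3 genes, Ift20, Ift46 and Rfx1. The heatmap of all values shows this as a block of low values in the last 3 columns.

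**Figure D2:**
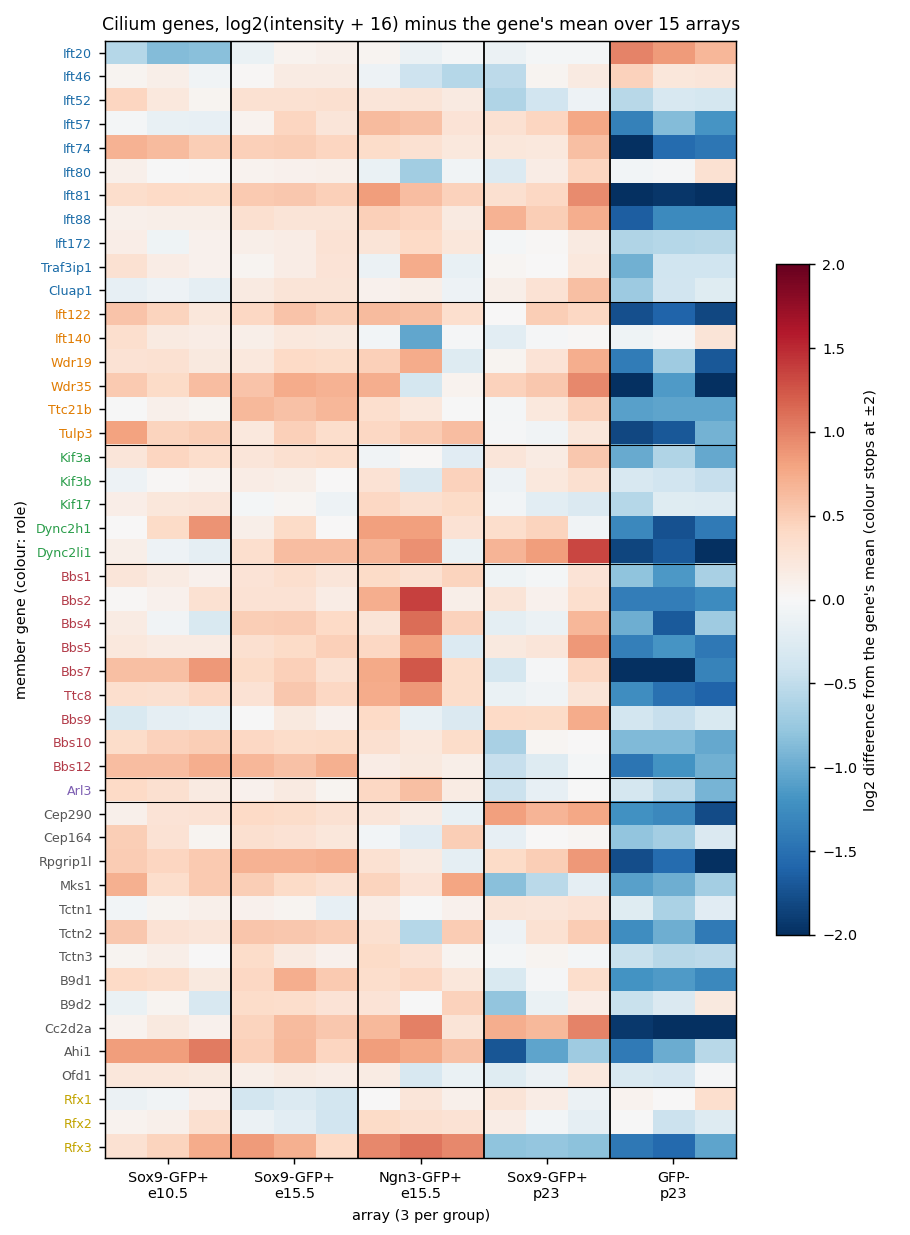
The 47 genes (vertical axis, labels coloured by role) in the 15 arrays (horizontal axis, 3 per group), as log2(intensity + 16) minus the gene's own mean over all arrays, with the colour scale ending at 2 in both directions. The last 3 columns, the GFP- arrays, are lowest for 33 genes, while Ift20 in the top line is highest there, and Ahi1, Mks1, Bbs12 and Rfx3 are also low in Sox9-GFP+ cells at p23.

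From e10.5 to e15.5 few cilium genes passed the test in Sox9-GFP+ cells. Of the 47, 2 rose and 1 fell, against 12.2% and 16% of all genes. The median change was 0.09, -0.04 under quantile normalization and 0.25 with each array scaled to its median; that of all genes was -0.05. A change within 0.5 in either direction was seen for 43 of the 47 and for 79% of all genes. Ift20 rose, from 10.31, 10.02 and 10.05 to 10.75, 10.95 and 10.99 (0.77 ± 0.12, adjusted p = 0.00052). Ttc21b rose from 8.79, 8.90 and 8.85 to 9.45, 9.39 and 9.46 (0.59 ± 0.13, adjusted p = 0.00547). Neither gene's groups overlapped. Rfx2 fell, from 7.81, 7.85 and 8.06 to 7.63, 7.54 and 7.36 (-0.40 ± 0.13, adjusted p = 0.0383). Some genes did not pass although their groups did not overlap, Cluap1 upward and Ahi1 downward among them. The number of such genes is not given here. Of all genes, 26.1% lay above and 31.2% below without overlap.

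Ift20 and Ttc21b were called higher whichever single array was left out. Rfx2 was not, as no gene was called lower without replicate 2 or 3 of Sox9-GFP+ e10.5, replicate 2 or 3 of Sox9-GFP+ e15.5 or replicate 2 of Sox9-GFP+ p23, and 4 were called higher without replicate 3 of Ngn3-GFP+, with Dync2li1 and Cc2d2a added. Without the 3 arrays with globin signal, which leaves 1 array at e10.5, only Ift20 was called. With the other groups left out of the fit, 9 rose and 3 fell. The share of all genes called in that fit is not given here, so these counts cannot be set against it. The median SD of the 47 genes was 0.104 at e10.5 and 0.0756 at e15.5, against 0.205 to 0.223 in the other groups. The main fit pooled the spread of all groups.

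Between e15.5 and p23 most of the genes changed little in Sox9-GFP+ cells, and some fell. Of the 47, 4 rose and 10 fell, against 30.7% and 26.8% of all genes (57.5% in either direction), and 39 stayed within 0.5 in either direction, against 57.1% of all genes. The median change was -0.13, 0.05 under quantile normalization and -0.29 with each array scaled to its median; that of all genes was 0.05. The 4 rises and 10 falls from e15.5 were below the shares of all genes for that step. Over the whole span from e10.5 to p23, 8 rose and 10 fell, with a median of -0.09. Of all genes, 17.7% rose and 23.3% fell (41% in either direction), so both counts are near the shares of all genes. The p23 arrays are shared by both comparisons and are not separate evidence. Markers of other cells moved between e15.5 and p23 as well. Leukocyte markers were higher at p23 for 8 of 12 (summed log2 values of 82.80 to 83.91 at e15.5 and 90.75 to 98.80 at p23), endothelial markers for 8 of 8 (51.63 to 52.77 and 57.69 to 60.35), and endocrine markers were lower for 11 of 12 (133.20 to 142.24 and 90.19 to 102.78). Their part in the changes with age was not tested.

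Ahi1, the Joubert syndrome gene jouberin, fell most. It read 9.38, 9.37 and 9.58 at e10.5, 9.01, 9.18 and 8.96 at e15.5 and 6.82, 7.49 and 7.83 at p23, a change of -1.67 ± 0.23 from e15.5 (adjusted p = 5.96e-05) and -2.07 ± 0.23 from e10.5 (adjusted p = 5.6e-06). In GFP- cells it read 7.12, 7.54 and 7.98, so both p23 sorts lay below every embryonic array. Mks1, a Meckel syndrome gene of the transition zone, behaved alike, from 7.84, 7.72 and 7.65 at e15.5 to 6.51, 6.81 and 7.16 at p23 (-0.91 ± 0.18, adjusted p = 0.00094), with 8.06, 7.70 and 7.87 at e10.5. Its p23 replicates 1 and 2 were below the dim-gene filter. Bbs12 read 8.55, 8.56 and 8.66 at e10.5, 8.60, 8.53 and 8.65 at e15.5 and 7.48, 7.68 and 7.90 at p23 (-0.91 ± 0.13, adjusted p = 9.26e-05 from e15.5).

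4 further genes with large falls from e15.5 lay in 3 roles. Ift52, a core IFT-B subunit, went from 10.22, 10.22 and 10.24 to 9.31, 9.53 and 9.81 (-0.68 ± 0.13, adjusted p = 0.00095). Bbs10 went from 7.88, 7.84 and 7.85 to 6.82, 7.51 and 7.48 (-0.58 ± 0.15, adjusted p = 0.00531). The gate genes B9d1 and B9d2 were the others. B9d1 went from 9.72, 10.03 and 9.84 to 9.0, 9.28 and 9.66 (-0.55 ± 0.15, adjusted p = 0.00683). B9d2 went from 8.37, 8.35 and 8.28 to 7.21, 7.87 and 8.14 (-0.59 ± 0.22, adjusted p = 0.031). In all 4, replicate 1 was the lowest of the p23 arrays, and the groups did not overlap. Ttc21b (-0.42) and Ttc8 (-0.40) fell as well. The B9d2 call was lost without any 1 of the 3 e15.5 arrays or replicate 1 of p23, Ttc8 without replicate 2 or 3 of e15.5 or replicate 1 or 2 of p23, and Ttc21b without replicate 1 of p23.

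The 4 rises from e15.5 to p23 were small. Rfx1 (0.43), Bbs9 (0.42), Cep290 (0.40) and Ift88 (0.35) passed, and none of them passed under every alternative. Only 2 rose without replicate 1 or 2 of Sox9-GFP+ e15.5, and only 1 without replicate 3 of Sox9-GFP+ e15.5 or replicate 1 or 3 of Sox9-GFP+ p23. With each array scaled to its median, none rose and 13 fell. That scaling also moved the median change of all genes from 0.05 to -0.11. The share of higher calls among all calls went from 53.4 to 39.4%.

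From e10.5 the largest rise was that of Dync2li1, from 9.24, 9.03 and 8.95 to 9.80, 9.97 and 10.46 at p23 (1.00 ± 0.24, adjusted p = 0.00369). Bbs9 rose from 9.09, 9.22 and 9.26 to 9.80, 9.79 and 10.14 (0.72 ± 0.16, adjusted p = 0.00211), and Cc2d2a from 9.36, 9.48 and 9.38 to 10.01, 9.94 and 10.28 (0.67 ± 0.16, adjusted p = 0.00437). In each, all p23 arrays lay above all e10.5 arrays. Ift20 (0.70), Ift57 (0.63), Ift88 (0.53), Cep290 (0.53) and Cluap1 (0.50) rose too. Besides the genes already named, Bbs7 (-0.67), Bbs10 (-0.64), Ift52 (-0.60), Tulp3 (-0.54), Arl3 (-0.50) and Kif17 (-0.39) fell. Without the 3 arrays with globin signal, 1 rose (Ift20) and 4 fell (Ahi1, Rfx3, Mks1 and Bbs12). With replicate 1 as the only Sox9-GFP+ p23 array, 2 rose from e10.5.

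The 3 Rfx genes did not move together. Rfx3, which is needed for nodal cilia and for islet cell maturation in mice, read 9.84, 9.97 and 10.27 at e10.5, 10.38, 10.24 and 9.93 at e15.5 and 8.73, 8.76 and 8.71 at p23 in Sox9-GFP+ cells. It fell by 1.45 ± 0.15 from e15.5 (adjusted p = 5.05e-06) and by 1.29 ± 0.15 from e10.5 (adjusted p = 9.86e-06), and the p23 arrays agreed within 0.05. In Ngn3-GFP+ cells it read 10.49, 10.60 and 10.49, above every Sox9-GFP+ e15.5 array, but the difference of 0.34 ± 0.15 did not pass. In GFP- cells it read 8.10, 7.97 and 8.48. Rfx6, a relative with a role in endocrine differentiation, fell by 4.77 ± 0.23 from e15.5 to p23 (adjusted p = 1.97e-09), the largest change among 6 other Rfx genes, of which Rfx5 rose and 4 did not pass.

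**Figure D3:**
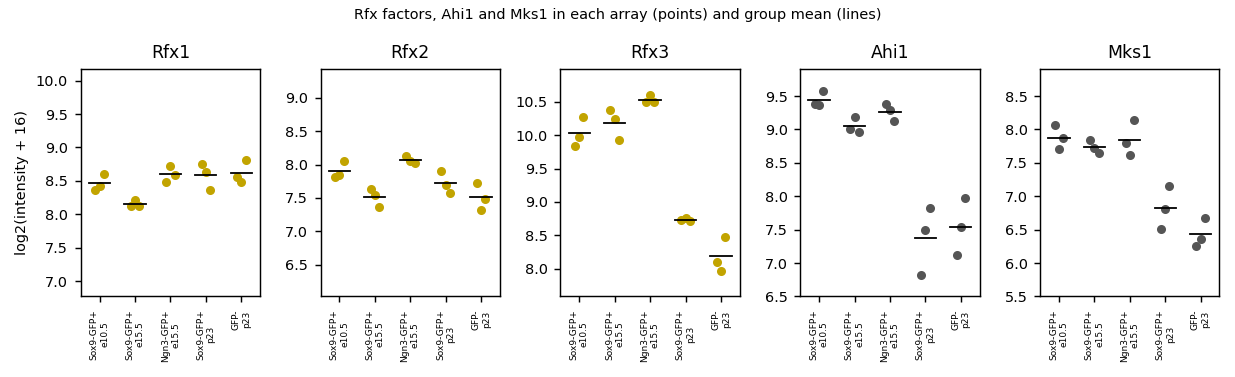
Rfx1, Rfx2, Rfx3, Ahi1 and Mks1 in each array (points) with the group mean (line), as log2(intensity + 16) on the vertical axis of each panel, 3.4 units high in all panels, for the 5 groups on the horizontal axis. Rfx3, Ahi1 and Mks1 are lower in both p23 groups than in all embryonic arrays, whereas Rfx1 and Rfx2 stay within about 1 unit throughout.

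At e15.5 the Sox9 and Ngn3 sorts differed little in these genes. In Ngn3-GFP+ cells 3 of the 47 were higher and 5 lower, against 23.3% and 18.4% of all genes, and 42 lay within 0.5 in either direction, against 70.1% of all genes. The median difference was -0.01, with 0.04 for all genes. Quantile normalization moved it to 0.10 and called 6 higher and none lower, and scaling to the median moved it to -0.19 and called 1 higher and 9 lower. The median of all genes was 0.06 and -0.14 in these settings. Of all calls, 53.2% and 28.2% were higher there, against 55.9% in the main fit. Endocrine markers were higher in Ngn3-GFP+ cells for 7 of 12 (summed 146.88 to 149.78 against 133.20 to 142.24), and acinar markers were lower for 7 of 9 (77.86 to 82.05 against 88.69 to 94.37). Their part in the differences between the e15.5 sorts was not tested.

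2 Rfx genes were higher in Ngn3-GFP+ cells. Rfx2 read 8.13, 8.06 and 8.03 against 7.63, 7.54 and 7.36 in Sox9-GFP+ cells (0.57 ± 0.13, adjusted p = 0.0064), and it was higher under every alternative. Rfx1 read 8.49, 8.72 and 8.59 against 8.12, 8.21 and 8.12 (0.45 ± 0.13, adjusted p = 0.0149). Kif17, a dim gene, read 7.24, 7.14 and 7.20 against 6.79, 6.87 and 6.72 (0.40 ± 0.11, adjusted p = 0.0138). None of these groups overlapped. Rfx1 and Kif17 were not called without replicate 3 of Sox9-GFP+ e15.5, which leaves 1 higher gene. Without replicate 3 of Ngn3-GFP+ 6 were higher, with Dync2h1, Bbs2 and Ttc8 added.

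The 5 lower genes came from 5 roles. Rpgrip1l read 8.60, 8.47 and 8.11 in Ngn3-GFP+ and 8.99, 8.99 and 9.02 in Sox9-GFP+ cells (-0.61 ± 0.18, adjusted p = 0.0189), and Bbs12 8.09, 8.13 and 8.05 against 8.60, 8.53 and 8.65 (-0.50 ± 0.13, adjusted p = 0.0104). Ift46 read 10.22, 9.91 and 9.75 against 10.34, 10.48 and 10.48 (-0.47 ± 0.17, adjusted p = 0.0372). No array of one sort reached into the other for these genes. Ttc21b read 9.14, 9.01 and 8.79 against 9.45, 9.39 and 9.46 (-0.46 ± 0.13, adjusted p = 0.0134), and the kinesin gene Kif3a 10.02, 10.10 and 9.86 against 10.33, 10.41 and 10.43 (-0.39 ± 0.13, adjusted p = 0.0322). Without replicate 1 or 2 of Sox9-GFP+ e15.5, 3 were lower, and without its replicate 3, 2 were. The Ngn3-GFP+ arrays were also the least alike. Replicate 2 was the highest of them for Bbs2 (10.22 against 9.57 and 8.97) and the lowest for Ift140 (7.46 against 8.45 and 8.48) and Tctn2 (7.82 against 8.71 and 8.90).

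The 2 sort differences share no array and can be set against each other. Their comparison cells differ, GFP- cells at p23 and cells of the Ngn3-EGFP reporter at e15.5. Age, comparison cells and reporter therefore cannot be told apart here. The interaction, which is the p23 difference of Sox9-GFP+ over GFP- cells minus the e15.5 difference of Sox9-GFP+ over Ngn3-GFP+ cells, passed the test above 0 for 33 of the 47 genes and below 0 for 2, against 27.1% and 18.3% of all genes. Whether called or not, 40 of the 47 values were positive, with a median of 0.80 against 0.18. Cc2d2a gave 2.97 ± 0.23 (adjusted p = 4.51e-07), Dync2li1 2.83 ± 0.34 and Ift81 2.77 ± 0.21. Ift46 (-0.88 ± 0.24) and Ift20 (-0.95 ± 0.17) were the genes called below 0. Under scaling to the median 23 of the 33 were called, and 27 with replicate 1 alone in the Sox9-GFP+ p23 group, 26 of them shared.

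**Figure D4:**
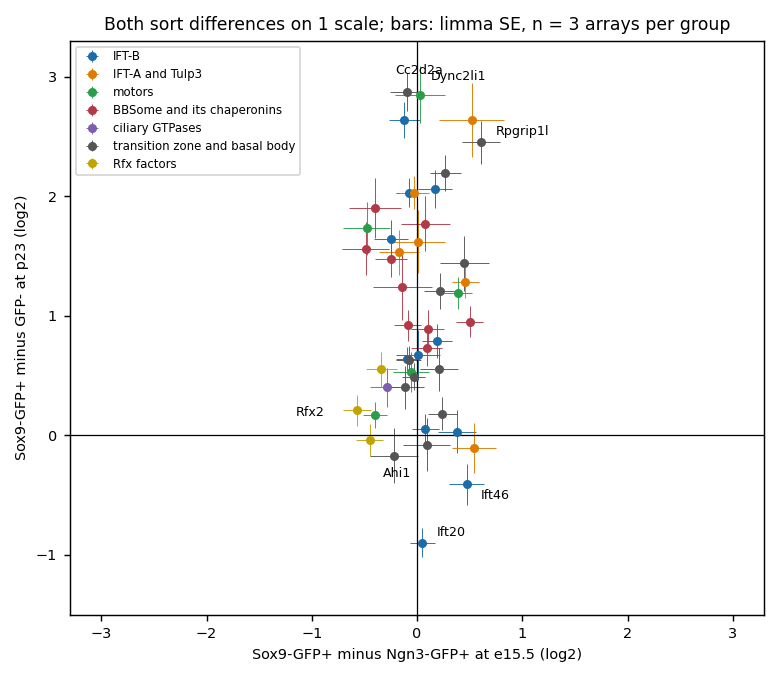
Each of the 47 genes by its difference between Sox9-GFP+ and Ngn3-GFP+ cells at e15.5 (horizontal axis) and between Sox9-GFP+ and GFP- cells at p23 (vertical axis), both as differences of log2(intensity + 16) on 1 scale, with limma standard errors and n = 3 arrays per group. The genes stretch from -0.90 to 2.87 vertically and from -0.57 to 0.61 horizontally.

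Other cilium genes were read from lists that hold none of the 47. Across the p23 sorts 15 of 29 other transport genes were higher and 2 lower (median 0.41), led by the IFT-A subunit Ift43 (2.76 ± 0.15, adjusted p = 2.68e-09), the dynein-2 intermediate chain Wdr60 (1.74), the kinesin-2 adaptor Kifap3 (1.68) and Rab23 (1.48). Of 32 other transition zone and basal body genes 16 were higher and none lower (median 0.64), led by Tmem138 (1.71), Spata7 (1.67), Rpgr (1.64) and Ttbk2 (1.60), a kinase that starts cilium assembly. Of all genes, 21.5% were higher and 14.5% lower in this comparison. In Ngn3-GFP+ cells 8 of the 29 and 6 of the 32 were lower than in Sox9-GFP+ cells at e15.5, among them the chaperonin Mkks (-0.88), Rab23 (-0.78), Tmem17 (-0.90) and Poc1a (-0.80), while 1 and 2 were higher. Of all genes, 18.4% were lower and 23.3% higher in that comparison, so 6 of 32 is near the share of all genes.

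Of 17 measured genes of cystic disease and nephronophthisis, 10 were higher in Sox9-GFP+ cells at p23 and none lower (median 0.63). The shares of all genes were 21.5% higher and 14.5% lower. Pkhd1, which encodes fibrocystin, was higher by 4.09 ± 0.31 (adjusted p = 1.06e-07), Cys1 (cystin) by 3.22, Dcdc2a by 3.10 and Glis3 by 2.79. Pkhd1 and Bicc1 are also on the duct marker list. Some genes of this list rose with age in Sox9-GFP+ cells and others fell. Dcdc2a rose by 4.95 ± 0.20 from e10.5 to e15.5 and by 1.66 ± 0.20 from there to p23. Pkhd1 rose by 1.93 ± 0.31 and 2.67 ± 0.31. Cys1 (2.17) and Bicc1 (2.14) were also called higher at e15.5 than at e10.5. Glis3 (0.97) and Umod (0.65) were called higher at p23 than at e15.5. Zfp423 changed by -0.72 ± 0.20 and -1.46 ± 0.20 in the same order. Umod, Ttc21a and Nphp4 were called lower at e15.5 than at e10.5, and Anks6 and Anks3 lower at p23 than at e15.5. Whether the lists differ in their change with age was not tested.

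Hedgehog signalling in mammals runs through the cilium. Of 20 genes 7 were higher in Sox9-GFP+ cells at p23 and 1 lower (median 0.13), against 21.5% and 14.5% of all genes. Evc2 (1.77), Evc (0.98), the transducer Smo (1.68) and the receptor and target Ptch1 (1.54) were highest. At e15.5, 5 of the 20 were higher and 3 lower in Ngn3-GFP+ cells, near the 23.3% and 18.4% of all genes. Smo was lower there than in Sox9-GFP+ cells (-0.70 ± 0.12, adjusted p = 0.00167), as was the inhibitor Hhip (-1.55 ± 0.18), while the ligand gene Ihh (0.60) and the transcription factor gene Gli2 (0.54) gave the largest of the higher values. Genes of motile cilia, the beating kind, were higher for 11 of 28 and lower for 1 at p23 (median 0.24). Of all genes, 21.5% were higher and 14.5% lower there. Rsph9 (2.24 ± 0.35), Lrrc6 (1.71), Tekt2 (1.60) and Rsph4a (1.48) led, and 8 more genes of the list were too dim to test.

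Centriole and cell cycle genes were mostly lower at p23 and in Ngn3-GFP+ cells. Of 15 centriole duplication genes none rose and 8 fell from e15.5 to p23, led by Tubg1 (-1.64 ± 0.20), and 9 were lower in Ngn3-GFP+ than in Sox9-GFP+ cells, among them Plk4 (-1.30 ± 0.17) and Sass6 (-1.26 ± 0.25), the kinase and the cartwheel protein that start a new centriole. Across the p23 sorts only Stil (1.11), Cdk5rap2 (0.44) and Pcnt (0.30) were higher. Of 11 genes of cilium disassembly, a list with several mitotic kinases, 3 rose and 6 fell from e15.5 to p23, with Plk1 at -2.84 ± 0.28, the microtubule depolymerase gene Kif2c at -2.43 and Aurka at -2.06 ± 0.18. Cell cycle genes fell for 22 of 23 between those stages (median -1.55) and were lower for 22 of 23 in Ngn3-GFP+ cells (median -1.41), while 5 were higher and 2 lower across the p23 sorts. Of all genes, 30.7% rose and 26.8% fell from e15.5 to p23, 23.3% were higher and 18.4% lower in Ngn3-GFP+ cells, and 21.5% were higher and 14.5% lower across the p23 sorts.

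**Figure D5:**
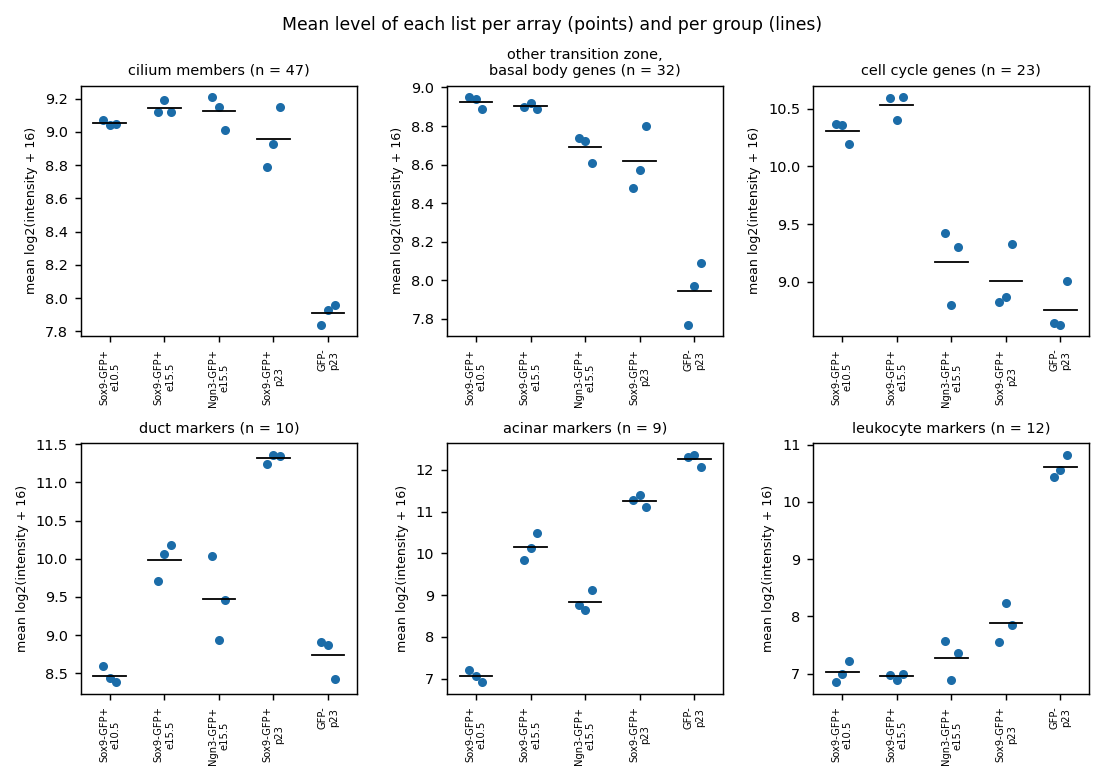
Mean log2(intensity + 16) of 6 gene lists (vertical axis, a scale of its own in each panel) in each array (points) and group (lines). The 47 cilium genes have means of 8.79 to 9.21 in 12 arrays and of 7.84 to 7.96 in the GFP- arrays, while cell cycle genes are highest in the 6 embryonic Sox9-GFP+ arrays and leukocyte markers in the 3 GFP- arrays.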

How the data were processed

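RNA of sorted pancreas cells was amplified from poly(A) RNA and hybridised to Affymetrix arrays, per the labels' protocols. The authors deposited linear intensity values per probe set, and the submitters' processing notes name Expression Console 1.1 and PLIER; how arrays were normalised together, if at all, was not given in the sources used here. Of the 35557 probe sets 21789 name 1 gene, and array medians ranged from 165.5 to 211.7. No 2 arrays were identical. The number of arrays limits the precision.

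Genes above intensity 97.8, the 30th percentile, in at least 3 arrays were kept, 16883 of 19938. From the deposited intensity, log2(intensity + 16) was computed, which understates changes of dim genes. All 15 arrays entered 1 limma fit (limma 3.58.1, R 4.3.3) with a mean per group; errors are its standard errors, and p-values were Benjamini-Hochberg adjusted over all genes tested. The model pools the spread of all groups. Tables and figures were made with Python 3.11.15. The fit was tested on simulated data.

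The cilium genes and all lists were chosen with earlier results of these data known. Values in every array are given for up to 8 called genes per comparison by size, and for Ift20 and, chosen after its values were seen, Bbs7. From other lists up to 4 called genes by size were named, with the falls up to e15.5 and after it added for cystic disease genes. From marker lists up to the first 2 were named. Probe set levels were not compared between genes. Alternatives were offsets of 1 and 64, 2 scalings, 2 filters, the mean of a gene's probe sets, a trended robust variance, the replicate number as a block, only the groups compared, and each array left out; 2 more, without arrays of globin or leukocyte signal, were chosen after seeing the data.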

Additional observations from a re-analysis of the deposited data

Results flagged for a closer look

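The limma interaction test called 35 of the 47 genes, against 45.3% of all genes in either direction. For these 35 the difference of Sox9-GFP+ from the other sort was not the same at p23 and at e15.5. The other sort was GFP- cells at p23 and Ngn3-GFP+ cells at e15.5, so age and comparison cells cannot be told apart. Each value here is the p23 difference minus the e15.5 difference on the log2 scale. Among transport train genes it was 2.77 for Ift81, 2.11 for Ift88, 1.90 for Ift74, 1.89 for Ift57, 0.74 for Ift172, 0.60 for Cluap1, 2.13 for Wdr35, 2.06 for Ift122, 1.7 for Tulp3, 1.61 for Wdr19 and 0.82 for Ttc21b. Among motors it was 2.83 for Dync2li1, 2.21 for Dync2h1, 0.80 for Kif3a and 0.57 for Kif17. In the BBSome group it was 2.30 for Bbs7, 2.06 for Bbs2, 1.71 for Ttc8, 1.69 for Bbs5, 1.38 for Bbs4, 1.02 for Bbs1, 0.79 for Bbs9 and 0.64 for Bbs10, and it was 0.69 for Arl3. At the ciliary base it was 2.97 for Cc2d2a, 1.92 for Cep290, 1.85 for Rpgrip1l, 0.99 for Tctn2, 0.99 for B9d1, 0.71 for Tctn1 and 0.52 for Tctn3. For the Rfx factors it was 0.89 for Rfx3 and 0.78 for Rfx2. Ift46 (-0.88) and Ift20 (-0.95) had the opposite sign. Rfx2, Kif17, Arl3 and Ift46 did not pass the threshold across the p23 sorts, and Arl3 did not at e15.5 either.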

How the results depend on the processing

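No gene's called difference turned its direction under any of the 27 alternatives. Counts of genes called under an alternative stand without the share of all genes called in that same setting. Of the 34 genes higher in Sox9-GFP+ than in GFP- cells, 29 were called in each of the 25 alternatives listed at the outset and 26 in all 27, and Ift20 was lower in all. Calls between stages and between the e15.5 sorts depended more on the settings; apart from the causes given by fewer arrays or another scaling, the cause was not tested.

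Quantile normalization called no gene lower from e10.5 to e15.5, 7 higher from e15.5 to p23, and 6 higher and 0 lower in Ngn3-GFP+ cells. Median scaling called 5 higher and 0 lower from e10.5 to e15.5, 0 higher from e15.5 to p23, and 1 higher and 9 lower in Ngn3-GFP+ cells. It moved the median change of all genes from -0.05 to 0.11, from 0.05 to -0.11 and from 0.04 to -0.14 in these comparisons, and the share of higher calls among all calls from 43.3 to 73.7%, from 53.4 to 39.4% and from 55.9 to 28.2%; a filter at the table median gave 58.2, 42.1 and 40.7%. With only the groups compared, e15.5 had 9 genes above and 3 below e10.5.

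Without the 3 arrays with globin signal, 1 rose and 0 fell up to e15.5, 1 rose from e15.5 to p23, over the whole span 1 rose and 4 fell, and Ngn3-GFP+ cells had 1 gene higher and 1 lower. With 1 Sox9-GFP+ p23 array, 1 rose from e15.5, 2 rose from e10.5, and 2 were lower than in GFP- cells.

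With each array left out in turn, 2 to 4 rose and 0 to 1 fell up to e15.5, 1 to 5 rose and 7 to 11 fell after it, over the whole span 7 to 8 rose and 7 to 13 fell, 1 to 6 were higher and 2 to 5 lower in Ngn3-GFP+ cells, and 31 to 36 were higher and 1 to 2 lower in Sox9-GFP+ than in GFP- cells. The interaction was called above 0 for 30 to 36 and below 0 for 2 to 3.

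Deviations of same-numbered arrays correlated at -0.49 to 0.20, and the main fit did not pair arrays by number. With the replicate number as a block, 34 genes were higher and 1 lower across the p23 sorts, and the calls lost elsewhere were Bbs9 and Ttc8 from e15.5 to p23 and Ift46 in Ngn3-GFP+ cells. From e15.5 to p23 all 6 arrays were closest to their own number, with low correlations of 0.16, 0.03 and 0.20. In the other comparisons 0 to 2 of 6 arrays were. Whether arrays were paired cannot be told from this.

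Kif17 in both p23 sorts, and Bbs5, Bbs10, Rpgrip1l and Mks1 in GFP- cells, lay under the dim-gene filter, where the log2(intensity + 16) scale understates a difference.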

Other observations

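Spread within a group was not alike across the sorts. The median SD of the 47 genes was 0.0756 in Sox9-GFP+ cells at e15.5, 0.104 at e10.5, 0.205 in Ngn3-GFP+ cells, 0.216 in GFP- cells and 0.223 in Sox9-GFP+ cells at p23. For all genes it was 0.0900, 0.161, 0.214, 0.153 and 0.173 in the same order. The widest were Wdr35 in GFP- cells (0.736), Bbs2 in Ngn3-GFP+ cells (0.624) and Ahi1 in Sox9-GFP+ cells at p23 (0.513).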
